A study of Mus musculus with 13 samples.

Results

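Of the genes measured in this study of mouse cortex, 30 were followed here: 18 enzymes of cholesterol synthesis, 5 genes of SREBP and its regulators, the sterol transfer protein gene Stard4 and 6 genes of fatty acid synthesis. They were taken by gene symbol as a fixed list, which was chosen with earlier results of these data known. All 30 stood in each of the 3 comparison tables, which list 14961 genes for Grn-/-;GRNtg against wild type, 13482 for Grn+/- against wild type and 17562 for Grn-/-;GRNtg against Grn+/-. Cortical RNA came from male mice aged 18 months. The groups were 4 Grn-/-;GRNtg mice, which lack both mouse copies of the progranulin gene Grn and carry human GRN as a transgene, 4 Grn+/- mice, with a single working mouse copy, and 5 wild-type mice (Grn+/+). The labels call both mutant groups progranulin deficient and the Grn-/-;GRNtg mice humanized. They give no promoter for the transgene, no strain, litter or dissection day. Progranulin is a secreted glycoprotein that is delivered to lysosomes.

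Cholesterol in the brain is made locally, since plasma lipoproteins do not cross the blood-brain barrier, and in the adult much of it lies in myelin. Synthesis runs from acetyl-CoA through mevalonate and farnesyl diphosphate to squalene, lanosterol and cholesterol. SREBP transcription factors are membrane proteins that SCAP escorts from the endoplasmic reticulum to the Golgi, where proteases release the active part, and INSIG proteins hold SCAP back when sterols are plentiful. SREBP-2, from Srebf2, mainly drives sterol genes, and SREBP-1, from Srebf1, mainly drives genes of fatty acid synthesis and desaturation.

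The deposited tables hold 1 value per gene and comparison and none per mouse, so the values given are the authors' log2 fold changes with their standard errors (SE), and a gene was called where the authors' adjusted p was under 0.05. Mouse Grn served as the check of the labels, at 24.7% of wild type in Grn-/-;GRNtg and 63.6% of wild type in Grn+/- in the authors' deposited tables. Counts assigned to mouse Grn were thus lower in both mutant groups and not absent in the group labelled Grn-/-;GRNtg, and the cause of the remaining counts was not tested. Reads assigned to no gene were lower in both mutant groups, at -0.18 ± 0.052 in Grn-/-;GRNtg and -0.22 ± 0.052 in Grn+/- against wild type in the authors' deposited tables. Reads counted as ambiguous were at 0.13 ± 0.054 (adjusted p = 0.12) in Grn-/-;GRNtg and 0.10 ± 0.054 in Grn+/- by the authors' deposited tables. The part of these reads in the results that follow, members with overlapping exons included, was not tested. Of all genes, 4.87% were called in Grn-/-;GRNtg against wild type and 6.80% in Grn+/- against wild type. Between Grn-/-;GRNtg and Grn+/- the share was 0.467%.

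As a level, the mean normalized count over all libraries was divided by the exon length of the gene, in kb. Of the 30 genes, 28 lay above the median gene, which had 63.1 mean normalized counts per kb of exon, and Idi1 and Stard4 lay below it. Scd2, a stearoyl-CoA desaturase gene that is prominent in mouse brain, was highest at 3783 mean normalized counts per kb, and stood at rank 120 of the 16850 genes with an exon length. Scd1, its paralog, had 628 per kb. Next after Scd2 came Hmgcs1, the cytosolic HMG-CoA synthase gene, at 932 mean normalized counts per kb, Srebf2 at 819, Fasn, the fatty acid synthase gene, at 795 and Acly, for the citrate lyase that makes cytosolic acetyl-CoA, at 736. Srebf1 had 306 per kb. The enzymes between lanosterol and cholesterol were lower, from 71.1 per kb for Hsd17b7 to 263 per kb for Cyp51. Idi1, the isopentenyl diphosphate isomerase gene, was the lowest of the 30 at 26.7 mean normalized counts per kb. No spread over mice can be given for these levels, so the order of close neighbours is a description. Counts of some members may hold reads of other genes. Of 50-base stretches in their transcripts, 39.1% for Acat2, 30.4% for Acaca, 26.5% for Fdft1, 26.2% for Fdps and 25.3% for Idi1 also occur in another gene or pseudogene, so these counts are uncertain. Exons of Hmgcs1 (12.1% of its exon length) and Scap (13.2%) overlap RNAs of the other strand, which matters because the strand setting of the counting is not given.

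**Figure D1:**
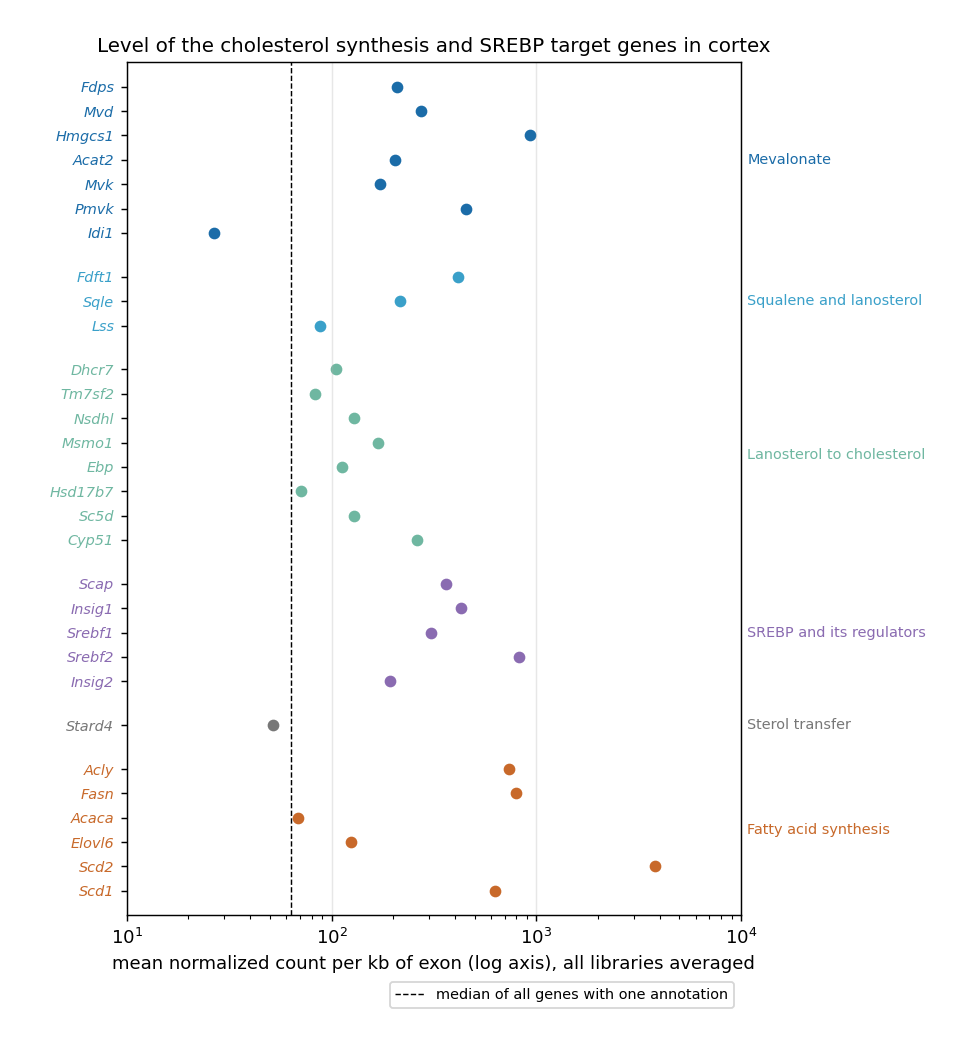
Level of the 30 genes as mean normalized count per kb of exon, averaged by the authors over all libraries, on a log axis; points are coloured by step of the pathway and the dashed line is the median of all genes with an exon length. Scd2 stands apart at 3783 per kb, and Idi1 and Stard4 lie left of the median of 63.1.

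Proximal promoters of 24 of the 30 genes were in the RefSeq promoter table (GRCm38.p6, from 250 bases before to 50 bases after the start), and 3 are printed because they belong to genes discussed below: Elovl6 was called in Grn+/-, Hmgcs1 carried the only match to the sterol regulatory element core, and Insig1 is a textbook SREBP target whose value between the mutant groups was farthest from 0 of the 30. Capitals mark matches on either strand to TCACNCCAC, the core of the sterol regulatory element, to CCAAT, bound by the cofactor NF-Y, and to the E-box CACGTG, and no matches overlap.
Elovl6 (chr3:129532136-129532435, plus strand): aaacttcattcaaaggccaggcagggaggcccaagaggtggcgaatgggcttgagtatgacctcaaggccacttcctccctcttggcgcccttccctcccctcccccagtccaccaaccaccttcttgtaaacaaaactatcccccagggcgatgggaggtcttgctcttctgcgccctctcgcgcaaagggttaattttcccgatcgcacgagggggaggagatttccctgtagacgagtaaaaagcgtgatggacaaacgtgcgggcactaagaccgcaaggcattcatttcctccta
Hmgcs1 (chr13:119690101-119690400, plus strand): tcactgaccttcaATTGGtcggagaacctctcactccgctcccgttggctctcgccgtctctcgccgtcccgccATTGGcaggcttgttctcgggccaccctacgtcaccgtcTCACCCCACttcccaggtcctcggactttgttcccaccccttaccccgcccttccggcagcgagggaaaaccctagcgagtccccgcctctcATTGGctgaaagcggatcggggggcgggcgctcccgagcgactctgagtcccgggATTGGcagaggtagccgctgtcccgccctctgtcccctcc
Insig1 (chr5:28071162-28071461, plus strand): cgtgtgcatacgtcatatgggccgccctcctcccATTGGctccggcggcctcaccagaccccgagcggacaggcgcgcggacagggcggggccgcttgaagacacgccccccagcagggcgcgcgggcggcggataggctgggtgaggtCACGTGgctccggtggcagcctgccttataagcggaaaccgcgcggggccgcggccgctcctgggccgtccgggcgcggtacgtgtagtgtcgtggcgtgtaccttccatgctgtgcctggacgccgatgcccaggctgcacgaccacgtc
The Elovl6 window held none of the 3 motifs. In Hmgcs1 the sterol element begins at position -137 from the start and lies among 4 CCAAT matches, all on the minus strand. Insig1 had 1 CCAAT match and 1 E-box. TCACNCCAC occurred in 1 of the 24 genes, 4.17%, against 1.44% of 10256 genes measured in the Grn+/- table that had a promoter, and in 1.24% of all starts in the RefSeq table. CCAAT occurred in 20 of the 24, 83.3%, against 42.5% of those genes and 37.4% of all starts. CACGTG occurred in 5 of the 24, 20.8%, against 11.7% and 7.15%. A match is a stretch of letters and was not tested as a binding site.

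The first question is how these genes stand in cortex that has human GRN in place of mouse Grn. In Grn-/-;GRNtg, the squalene synthase gene Fdft1 rose and the desaturase gene Scd2 fell, and these were the 2 of 30 genes called. That is 1 higher and 1 lower, where 1.81% of all genes were called higher and 3.05% lower. The median log2 fold change of the 30 genes was 0.036, against 0.0050 over all genes, and 60.0% of them were positive, against 51.3% of all genes. At an unadjusted p under 0.05 in the authors' test, 4 of the 30 were higher and 3 lower, 23.3% in all, against 20.5% of all genes (10.1% higher and 10.4% lower). The median was 0.10 for the 18 sterol enzymes, with 11 of 18 positive, and -0.11 for the 6 fatty acid genes, with 5 of 6 negative. The difference between these gene groups was not tested.

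In the mevalonate part, 5 of 7 enzyme genes were positive in Grn-/-;GRNtg against wild type and 0 were called; the smallest adjusted p was 0.23 and 1 gene, Fdps, had an unadjusted p under 0.05. Fdps, which makes farnesyl diphosphate, was highest at 0.21 ± 0.107 in the authors' deposited table. Mvd, the mevalonate diphosphate decarboxylase gene, was at 0.16 ± 0.090 and Hmgcs1 at 0.14 ± 0.080 in the authors' deposited table. Acat2, a cytosolic thiolase gene, had 0.11 ± 0.096 and the mevalonate kinase gene Mvk had 0.09 ± 0.083, as the authors' deposited table gives them. Pmvk, for the next kinase, was at -0.04 ± 0.064 and Idi1 at -0.12 ± 0.119 in the authors' deposited table.

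Fdft1 (chromosome 14, 63145150 to 63179578, minus strand, GRCm38) encodes squalene synthase, the first enzyme committed to sterols. The authors' deposited table has it at 0.25 ± 0.061 in Grn-/-;GRNtg (adjusted p = 0.0041), or 119% of wild type (95% interval from the deposited SE 0.13 to 0.37 in log2). Exons of Fdft1 share 774 bases, 18.3% of its exon length, with the cathepsin B gene Ctsb on the other strand, and the strand setting of the counting is not given. Ctsb itself was at -0.04 ± 0.069 in this comparison in the authors' deposited table. The call of Fdft1 rests on the authors' spread: with all statistics of the table divided by their robust spread its adjusted p was 0.81, and it was 0.0038 to 0.0041 in the other settings. Of the following enzymes, the squalene epoxidase gene Sqle was at 0.21 ± 0.108 (adjusted p = 0.26) and the lanosterol synthase gene Lss at -0.02 ± 0.081 in the authors' deposited table.

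Between lanosterol and cholesterol, 4 of 8 genes were positive and 0 were called in Grn-/-;GRNtg against wild type; 2 were higher and 1 lower at an unadjusted p under 0.05 in the authors' test. Dhcr7, for the reductase that finishes cholesterol, was at 0.21 ± 0.078 with adjusted p = 0.089 from the authors' deposited table. The sterol reductase gene Tm7sf2 had 0.20 ± 0.086 (adjusted p = 0.14) from the authors' deposited table, and 12.1% of its exon length is shared with Vps51 on the same strand. At the other end, Cyp51, the lanosterol demethylase gene, was at -0.20 ± 0.079 with adjusted p = 0.12 from the authors' deposited table. Nsdhl and Msmo1, of the demethylation that follows, were at 0.18 ± 0.106 and 0.06 ± 0.085, and Hsd17b7, of the same step, was at -0.06 ± 0.112 in the authors' deposited table. The isomerase gene Ebp was at -0.05 ± 0.10 and the desaturase gene Sc5d at -0.09 ± 0.074 in the authors' deposited table. Neighbouring steps of this stretch thus had values of both signs.

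The genes that control the pathway were close to wild type in Grn-/-;GRNtg, with 0 of 5 called, 0 of 5 at an unadjusted p under 0.05 in the authors' test and a median of 0.02. Srebf2 was at 0.0029 ± 0.061 (95% interval -0.12 to 0.12) and Srebf1 at 0.02 ± 0.090 (95% interval -0.15 to 0.20) in the authors' deposited table. Scap was at 0.11 ± 0.056, Insig1 at 0.05 ± 0.089 and Insig2 at 0.0024 ± 0.073 in the authors' deposited table. These are transcript levels; the cleaved, active SREBP proteins were not measured. Stard4, whose protein moves sterol between membranes, was at 0.12 ± 0.118 in the authors' deposited table.

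Among the fatty acid genes, Scd2 (chromosome 19, 44293674 to 44306864, plus strand, GRCm38) fell in Grn-/-;GRNtg to 84.6% of wild type; the authors' deposited table gives -0.24 ± 0.076 and an adjusted p of 0.039 (95% interval -0.39 to -0.09). Its adjusted p was 0.99 with the robust spread and 0.034 to 0.039 in the other settings. Scd1, on the same chromosome, had the lowest value of the 30, -0.32 ± 0.120, with a wider SE and adjusted p = 0.086 from the authors' deposited table. Of the 50-base stretches in Scd2 transcripts, 2.66% also occur in Scd1 transcripts. Elovl6, for an elongase of saturated fatty acids, was at -0.13 ± 0.080 (adjusted p = 0.34), Acaca, for acetyl-CoA carboxylase, at -0.08 ± 0.066 and Fasn at -0.02 ± 0.063 in the authors' deposited table. Acly was the 1 positive member at 0.07 ± 0.055 in the authors' deposited table.

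**Figure D2:**
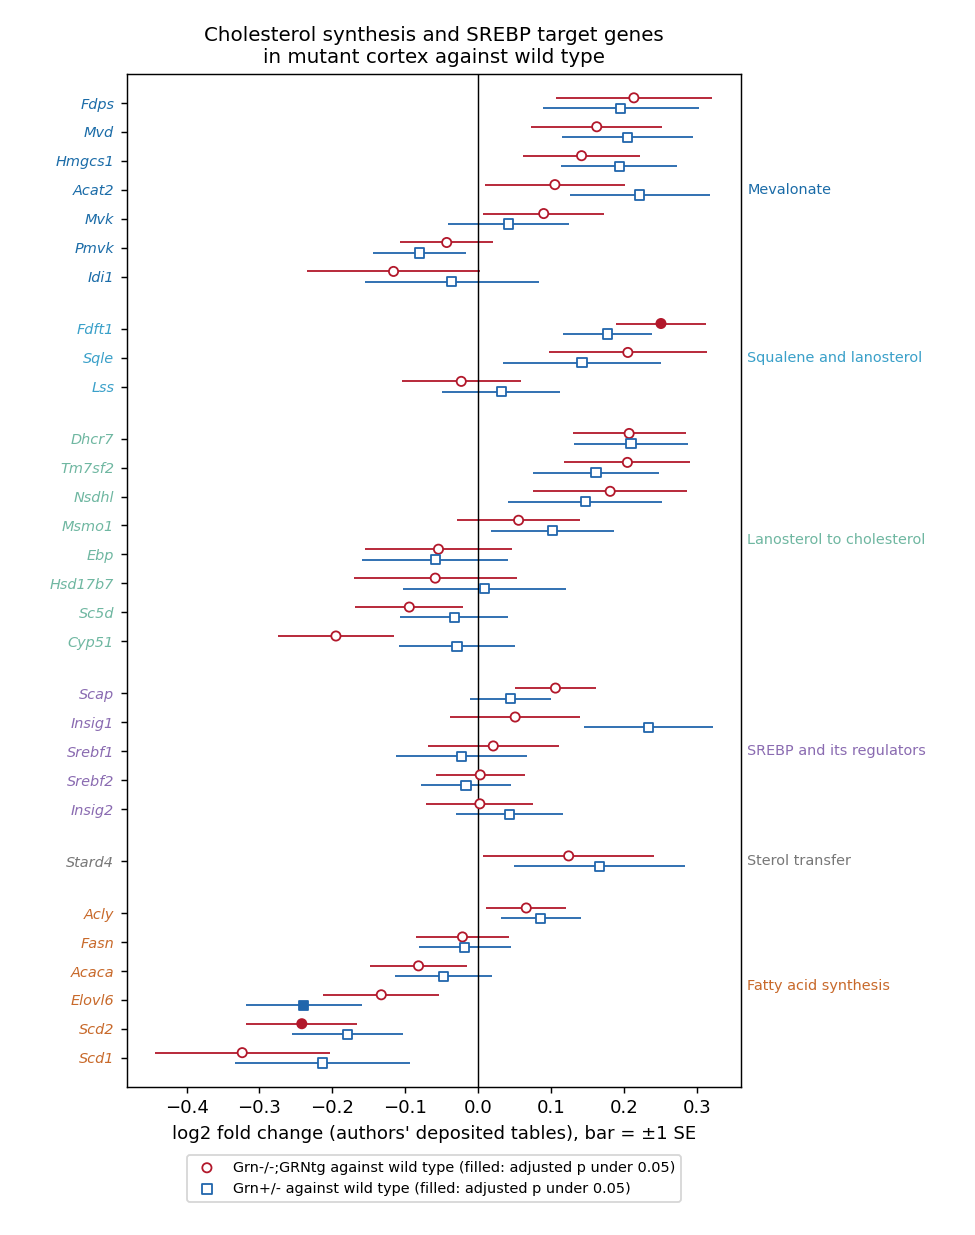
Log2 fold change of each of the 30 genes in Grn-/-;GRNtg (red circles) and Grn+/- (blue squares) against wild type, with bars of 1 SE, from the authors' deposited tables; filled symbols have adjusted p under 0.05. Fdft1 and Scd2 are filled for Grn-/-;GRNtg and Elovl6 for Grn+/-, most sterol enzymes lie right of 0 and 5 of 6 fatty acid genes lie left of it in both comparisons, which share their wild-type mice.

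The second question is how they stand in mice with a single working copy of mouse Grn and no human GRN. In Grn+/-, Elovl6 fell and was the 1 of 30 genes called, with 0 called higher, where 2.29% of all genes were called higher and 4.51% lower. The median of the 30 was 0.04, against 0.0082 over all genes, and 60.0% were positive, against 52.4% of all genes. The 18 sterol enzymes had a median of 0.12 with 13 of 18 positive, and the 6 fatty acid genes a median of -0.11 with 5 of 6 negative. At an unadjusted p under 0.05 in the authors' test, 5 of the 18 sterol enzymes were higher, 27.8%, and 0 lower, where 9.09% of all genes were higher and 11.1% lower at that level. Over the 30 genes, 6 were higher and 2 lower there, 26.7% in all, against 20.2% of all genes.

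Acat2 was the highest sterol enzyme in Grn+/-, with 0.22 ± 0.096 (adjusted p = 0.15) from the authors' deposited table, and the stretches it shares are with its close copy Acat3. Mvd was at 0.20 ± 0.090 (adjusted p = 0.16), Fdps at 0.20 ± 0.107 (adjusted p = 0.29) and Hmgcs1 at 0.19 ± 0.080 (adjusted p = 0.13) from the authors' deposited table. Together with Acat2, these enzymes lay between 114% and 117% of wild type. Fdps shares 26.7% of its exon length with the gene model Gm43738 on the same strand. Mvk at 0.04 ± 0.084, Idi1 at -0.04 ± 0.119 and Pmvk at -0.08 ± 0.064 lay nearer to wild type or below it in the authors' deposited table.

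Fdft1 was at 0.18 ± 0.062 in Grn+/-, 113% of wild type, and its adjusted p of 0.055 in the authors' deposited table missed the threshold. Its overlapping neighbour Ctsb was at 0.18 ± 0.069 here (adjusted p = 0.099 from the authors' deposited table), and the part of shared reads was not tested. Dhcr7 was at 0.21 ± 0.078, 116% of wild type, with adjusted p = 0.078 from the authors' deposited table. Sqle (0.14 ± 0.108), Tm7sf2 (0.16 ± 0.087), Nsdhl (0.15 ± 0.106) and Msmo1 (0.10 ± 0.085) were positive and not called in the authors' deposited table. Lss (0.03 ± 0.081), Hsd17b7 (0.0089 ± 0.112), Cyp51 (-0.03 ± 0.079), Sc5d (-0.03 ± 0.074) and Ebp (-0.06 ± 0.10) lay within 1 SE of 0 in the authors' deposited table.

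Insig1, which SREBP induces and whose protein restrains it, had the highest value of the 30 in Grn+/-, 0.23 ± 0.089 or 118% of wild type, with adjusted p = 0.087 from the authors' deposited table. Insig2 was at 0.04 ± 0.073, Scap at 0.04 ± 0.056, Srebf2 at -0.02 ± 0.061 and Srebf1 at -0.02 ± 0.090 in the authors' deposited table. The 95% interval of Srebf2 ran from -0.14 to 0.10 and that of Srebf1 from -0.20 to 0.15, computed from SEs in the authors' deposited table. Stard4 was at 0.17 ± 0.118 in the authors' deposited table, with adjusted p = 0.45.

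Elovl6 (chromosome 3, 129532355 to 129638495, plus strand, GRCm38) fell in Grn+/- to 84.7% of wild type; the authors' deposited table gives -0.24 ± 0.080 and an adjusted p of 0.043 (95% interval -0.40 to -0.08). Its adjusted p was 0.68 with the robust spread and 0.039 to 0.044 in the other settings. The desaturase genes had similar values and were not called: Scd1 was at -0.21 ± 0.120 (adjusted p = 0.31) and Scd2 at -0.18 ± 0.076 (adjusted p = 0.14) from the authors' deposited table. Fasn (-0.02 ± 0.063) and Acaca (-0.05 ± 0.066) were within 1 SE of 0, and Acly was at 0.09 ± 0.055 in the authors' deposited table. Genes for enzymes that build palmitate thus had values nearer to 0 than those for enzymes that elongate or desaturate fatty acids; the differences between these genes were not tested.

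The third question is whether the mutant groups differ from each other. None of the 30 was called by the authors' DESeq2 test, where 0.467% of all genes were (0.319% higher and 0.148% lower). At an unadjusted p under 0.05, 0 were higher and 2 lower, 6.67% in all, against 8.99% of all genes (5.14% higher and 3.85% lower). The 2 were Cyp51 at -0.17 ± 0.083 and Insig1 at -0.18 ± 0.092 in Grn-/-;GRNtg against Grn+/-, with adjusted p = 0.54 and 0.55 from the authors' deposited table. Insig1 was at 104% of wild type in Grn-/-;GRNtg and at 118% in Grn+/- by the authors' deposited tables. Cyp51 had -0.20 in Grn-/-;GRNtg and -0.03 in Grn+/- against wild type in the authors' deposited tables. The median of the 30 was -0.03, against 0.0014 over all genes.

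For the 3 genes called against wild type, the mutant groups were not shown to differ. Fdft1 was at 0.07 ± 0.064 in Grn-/-;GRNtg against Grn+/- (95% interval -0.05 to 0.20, adjusted p = 0.82) from the authors' deposited table. Scd2 was at -0.06 ± 0.080 (95% interval -0.22 to 0.09, adjusted p = 0.91) and Elovl6 at 0.11 ± 0.083 (95% interval -0.06 to 0.27, adjusted p = 0.79) from the authors' deposited table. A p that misses the threshold does not show that the groups are alike, and each of these intervals spans 0. Over the 30 genes, values ran from -0.18 for Insig1 to 0.11 for Elovl6 in the authors' deposited table.

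**Figure D3:**
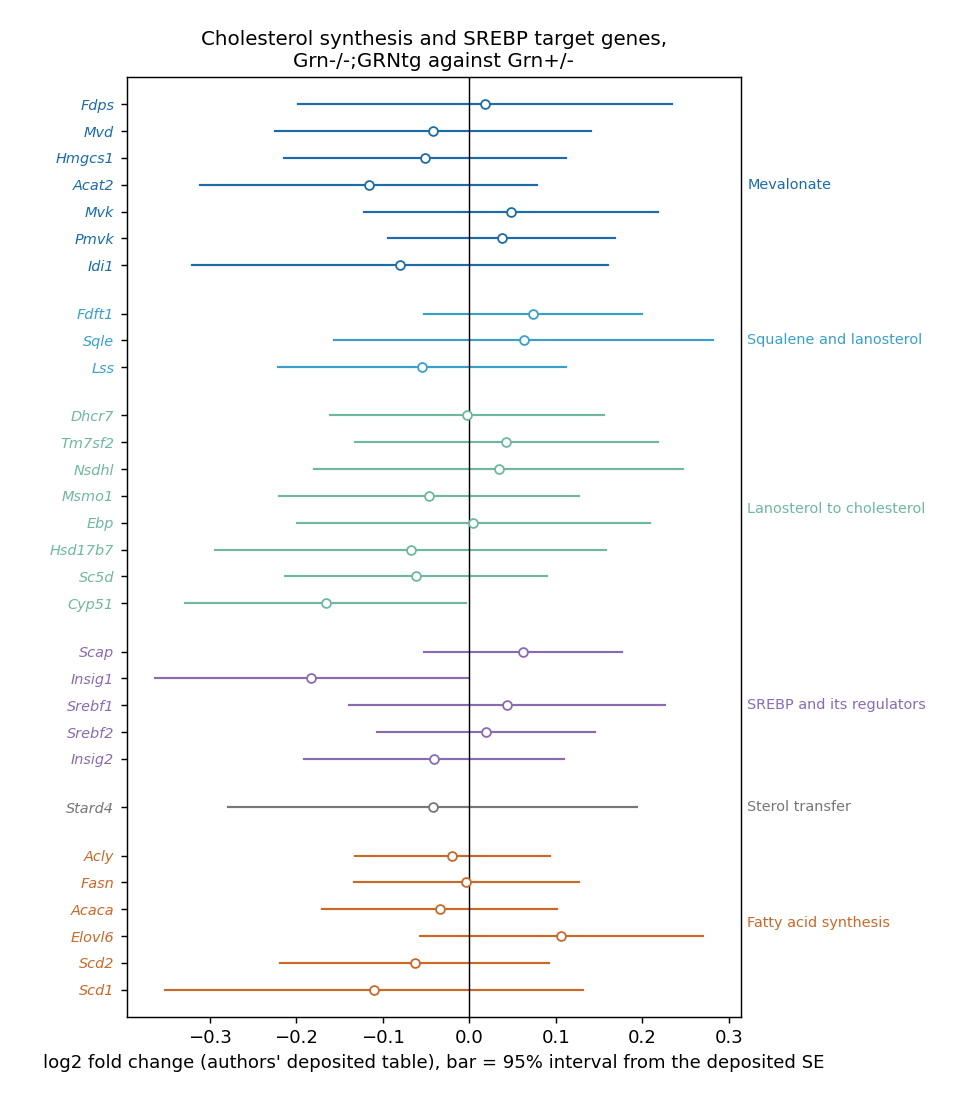
Log2 fold change of the 30 genes in Grn-/-;GRNtg against Grn+/-, with 95% intervals computed from the SE in the authors' deposited table; colours mark the step of the pathway. Open points show that none has adjusted p under 0.05, and only the intervals of Cyp51 and Insig1 end below 0.

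Genes around the pathway were read from fixed lists, also chosen with earlier results of these data known, and counts cover the genes reported here. Of 14 other SREBP targets, 2 fell and 0 rose in Grn-/-;GRNtg against wild type, where 3.05% of all genes were called lower and 1.81% higher, with a median of -0.10. At an unadjusted p under 0.05, 1 of the 14 was higher and 5 lower, 42.9% in all, against 20.5% of all genes. The 2 called genes were Fads1, a desaturase gene of polyunsaturated fatty acids, at -0.23 ± 0.054 (adjusted p = 0.0033), and Gpam, for the acyltransferase that starts glycerolipid synthesis, at -0.27 ± 0.077 (adjusted p = 0.021) from the authors' deposited table. In Grn+/- against wild type, 0 of these 14 were called in the authors' DESeq2 test, and the median was -0.06. At an unadjusted p under 0.05, 1 was higher and 2 lower, 21.4% in all, against 20.2% of all genes. Gpam was at -0.22 ± 0.077 (adjusted p = 0.055), and Tmem97, a sterol-regulated gene of a membrane protein, was at 0.23 ± 0.088 (adjusted p = 0.091) from the authors' deposited table. Fads1 there had -0.14 ± 0.054 in the authors' deposited table.

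Of 10 genes that process SREBP or turn over sterol-regulated proteins, 0 were called against wild type in either mutant group, with medians of 0.07 in Grn-/-;GRNtg and 0.04 in Grn+/-. In Grn-/-;GRNtg, 2 were higher and 1 lower at an unadjusted p under 0.05 in the authors' test, and in Grn+/- 1 was higher and 1 lower. That is 3 of 10 and 2 of 10, where 20.5% and 20.2% of all genes had such a p. The ubiquitin ligase genes Rnf145 and Syvn1 had the smallest p in both: Rnf145 was at 0.19 ± 0.066 in Grn-/-;GRNtg and 0.14 ± 0.066 in Grn+/-, and Syvn1 at -0.15 ± 0.055 in Grn-/-;GRNtg and -0.13 ± 0.055 in Grn+/-, in the authors' deposited tables. Of 5 electron transfer partners of sterol and fatty acid enzymes, 1 rose in Grn-/-;GRNtg: the cytochrome b5 reductase gene Cyb5r3 at 0.29 ± 0.085 (adjusted p = 0.026) from the authors' deposited table. In Grn+/- it was at 0.23 ± 0.085 (adjusted p = 0.080) and its relative Cyb5r1 at 0.20 ± 0.091 (adjusted p = 0.18) from the authors' deposited table, where 0 of the 5 were called by the authors' DESeq2 test. At an unadjusted p under 0.05, 2 of the 5 were higher and 0 lower in each mutant group, 40.0%. Such a p was held by 20.5% of all genes in Grn-/-;GRNtg (10.1% higher) and 20.2% in Grn+/- (9.09% higher). By adjusted p, 1.81% of all genes were called higher in Grn-/-;GRNtg and 2.29% in Grn+/-.

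The isoprenoid branch leaves the pathway at farnesyl diphosphate and serves dolichol, ubiquinone and protein prenylation. Of its 13 listed genes, 1 rose in Grn-/-;GRNtg, where 1.81% of all genes were called higher and 3.05% lower. It was the dolichol kinase gene Dolk at 0.22 ± 0.069 (adjusted p = 0.042) from the authors' deposited table. At an unadjusted p under 0.05 in the authors' test, 2 of the 13 were higher and 1 lower there, 23.1% against 20.5% of all genes. In Grn+/-, 1 rose and 1 fell, where 2.29% of all genes were called higher and 4.51% lower. Rabggtb, a subunit gene of the Rab prenyltransferase, was at 0.19 ± 0.061 (adjusted p = 0.038) and Pdss1, of ubiquinone side chain synthesis, at -0.37 ± 0.110 (adjusted p = 0.021) from the authors' deposited table. At an unadjusted p under 0.05, 2 were higher and 2 lower in Grn+/-, 30.8% against 20.2% of all genes. Rabggtb hosts snoRNA genes within its exons, which share 2.93% and 3.30% of its exon length. The medians of the branch were -0.00073 in Grn-/-;GRNtg and 0.07 in Grn+/-.

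On the export and storage side, the called genes were all lower. Abca1, the transporter that loads cholesterol onto apolipoproteins, fell to 71.8% of wild type in Grn-/-;GRNtg, at -0.48 ± 0.114 (adjusted p = 0.0030) from the authors' deposited table. In Grn+/- it fell to 66.9% of wild type, at -0.58 ± 0.114 (adjusted p = 9.5e-05) from the authors' deposited table. Soat1, for the enzyme that esterifies cholesterol for storage, had -0.22 ± 0.093 in Grn-/-;GRNtg (adjusted p = 0.14) and fell in Grn+/-, at -0.45 ± 0.095 (adjusted p = 0.00026), by the authors' deposited tables. The difference in Soat1 between Grn-/-;GRNtg and Grn+/- was 0.23 ± 0.099 (adjusted p = 0.42) from the authors' deposited table. Of 15 measured genes of sterol export and turnover, 1 fell in Grn-/-;GRNtg, where 3.05% of all genes were called lower. Of 14 in Grn+/-, 2 fell, where the share of all genes was 4.51%. At an unadjusted p under 0.05 in the authors' test, 2 were higher and 5 lower in Grn-/-;GRNtg, 46.7% against 20.5% of all genes. In Grn+/- 1 was higher and 2 lower at that level, 21.4% against 20.2% of all genes. Cyp46a1, for the neuronal enzyme that hydroxylates cholesterol for removal from the brain, was at 0.20 ± 0.069 in Grn-/-;GRNtg (adjusted p = 0.064) and 0.14 ± 0.069 in Grn+/- (adjusted p = 0.21) from the authors' deposited tables. The list medians were -0.05 in Grn-/-;GRNtg and -0.03 in Grn+/-, nearer to 0 than Abca1.

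Between Grn-/-;GRNtg and Grn+/- none of these 5 lists held a called gene in the authors' DESeq2 test, where 0.467% of all genes were called. An unadjusted p under 0.05 was held by 8.99% of all genes, 5.14% higher and 3.85% lower. At an unadjusted p under 0.05, the other SREBP targets had 0 higher and 1 lower, the SREBP processing genes 1 and 0, the isoprenoid branch 0 and 1, the electron transfer partners 0 and 0, and the export and turnover genes 1 and 1. The smallest p in each of the first lists belonged to Thrsp, a lipogenic regulator gene, at -0.28 ± 0.120, and to Erlin2, of the complex that degrades sterol-regulated proteins, at 0.20 ± 0.067 (adjusted p = 0.41 and 0.20 from the authors' deposited table). Next were Fads2 at 0.14 ± 0.092 and Rnf139 at -0.10 ± 0.072 in the authors' deposited table. Icmt, for a methyltransferase of prenylated proteins, was at -0.11 ± 0.056 and Rabggtb at -0.12 ± 0.064, Por and Cyb5b were at 0.07 ± 0.063 and -0.07 ± 0.062, and Stard3 was at -0.14 ± 0.068, all from the authors' deposited table.

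**Figure D4:**
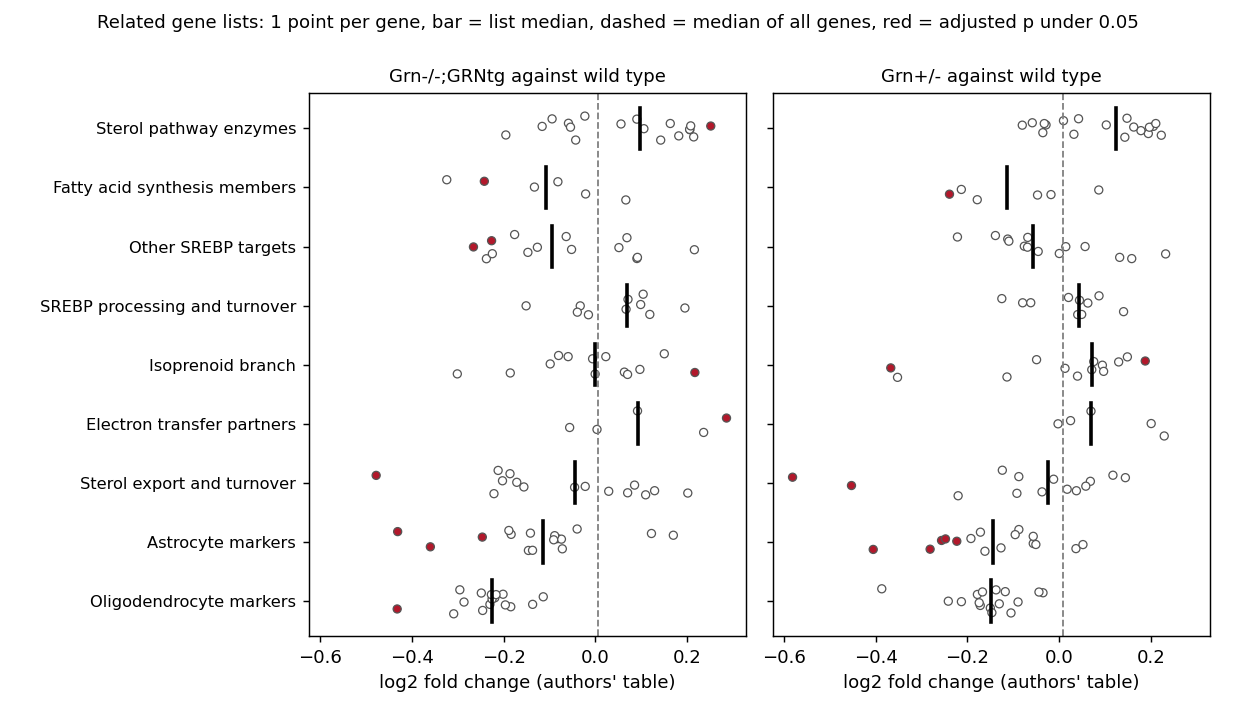
Log2 fold changes from the authors' deposited tables for lists of related genes and for astrocyte and oligodendrocyte markers, Grn-/-;GRNtg against wild type on the left and Grn+/- against wild type on the right; each point is a gene, red points have adjusted p under 0.05, black bars are list medians and the dashed line is the median of all genes. Sterol enzymes have medians of 0.10 and 0.12, fatty acid genes of -0.11 in both, and oligodendrocyte markers of -0.23 and -0.15.

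Oligodendrocytes and astrocytes are the main sites of sterol synthesis in brain, and in bulk cortex fewer cells of a type and less RNA per cell cannot be told apart. For the marker lists that follow, 1.81% of all genes were called higher and 3.05% lower in Grn-/-;GRNtg against wild type. In Grn+/- these shares were 2.29% and 4.51%. An unadjusted p under 0.05 in the authors' test was held by 20.5% and 20.2% of all genes, respectively. Oligodendrocyte markers were negative in 16 of 16 genes in Grn-/-;GRNtg against wild type, with a median of -0.23 and 1 called lower, Ugt8a at -0.43 ± 0.137 (adjusted p = 0.040) from the authors' deposited table. In Grn+/- they were negative in 16 of 16 with a median of -0.15 and 0 called by the authors' DESeq2 test, 1 being lower at an unadjusted p under 0.05. The SEs of these markers lay between 0.132 and 0.138, next to the highest SE in the tables. A prior on fold changes, which would draw such genes towards 0 more than genes with lower SEs, is possible and not stated. The medians of these markers and of the sterol enzymes may thus not be directly comparable. In Grn+/- Ugt8a had -0.39 ± 0.137 and Gjc3 -0.24 ± 0.132 in the authors' deposited table. Of the 6 fatty acid genes, 5 were negative and 1 positive in both mutant groups. Of the 18 sterol enzymes, 7 were negative in Grn-/-;GRNtg and 5 in Grn+/-, with medians of 0.10 and 0.12. Whether these signs are tied to the oligodendrocyte markers was not tested. Astrocyte markers were negative in 14 of 16 genes in both mutant groups, with medians of -0.11 in Grn-/-;GRNtg and -0.14 in Grn+/-. Of them 3 were called lower in Grn-/-;GRNtg (S1pr1, Ppp1r3c and Slc4a4) and 5 in Grn+/- (those 3, Slc1a2 and Gja1). At an unadjusted p under 0.05, 0 were higher and 5 lower in Grn-/-;GRNtg, 31.25%. In Grn+/- 0 were higher and 7 lower at that level, 43.75%. S1pr1 was at -0.43 ± 0.080 in Grn-/-;GRNtg and -0.28 ± 0.080 in Grn+/- in the authors' deposited tables. Oligodendrocyte precursor markers were negative in 5 of 10 genes in Grn-/-;GRNtg and 10 of 10 in Grn+/-, with medians of 0.02 in Grn-/-;GRNtg and -0.13 in Grn+/-. Of them 0 were called in Grn-/-;GRNtg by the authors' DESeq2 test, with 1 higher and 3 lower at an unadjusted p under 0.05, and 2 fell in Grn+/-, Gpr17 and Vcan. In Grn-/-;GRNtg Gpr17 was at -0.28 ± 0.093 (adjusted p = 0.054) and Cspg4 at 0.19 ± 0.073 (adjusted p = 0.096) from the authors' deposited table. Excitatory neuron markers had medians of -0.06 in Grn-/-;GRNtg and -0.03 in Grn+/-, with Camk2a called lower in Grn-/-;GRNtg and Rorb called higher in Grn+/-. Inhibitory neuron markers had medians of 0.06 in Grn-/-;GRNtg and 0.13 in Grn+/-, with 0 of 8 called by the authors' DESeq2 test and 2 higher at an unadjusted p under 0.05 in each. Sst was at 0.20 ± 0.097 and Gad2 at 0.17 ± 0.085 in Grn-/-;GRNtg, and Gad1 at 0.20 ± 0.078 and Slc32a1 at 0.15 ± 0.060 in Grn+/-, in the authors' deposited tables. Of 5 blood genes 1 was measured, the erythroid gene Alas2, which was at -0.04 in Grn-/-;GRNtg and -0.27 in Grn+/- in the authors' deposited tables. Camk2a, a marker of the labelled cortex, was abundant, with 79958 as its mean normalized count over all libraries by the authors' deposited tables.

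Between Grn-/-;GRNtg and Grn+/- 0 genes of the marker lists were called by the authors' DESeq2 test, where 0.467% of all genes were called. Among the lists of brain cell types, oligodendrocyte precursor markers had the highest median. It was 0.19 with 8 of 10 positive, and 5 of 10 were higher and 0 lower at an unadjusted p under 0.05. Of all genes, 5.14% were higher and 3.85% lower at that level, 8.99% in all. Cspg4 was at 0.27 ± 0.077 (adjusted p = 0.070) and Matn4 at 0.40 ± 0.115 (adjusted p = 0.074) from the authors' deposited table. Oligodendrocyte markers had a median of -0.07 with 16 of 16 negative, and 0 of them had an unadjusted p under 0.05, Enpp2 being at -0.26 ± 0.137 and Ermn at -0.11 ± 0.133 in the authors' deposited table. Astrocyte markers had a median of 0.03, with S1pr1 at -0.15 ± 0.084 and Fgfr3 at 0.09 ± 0.085 in the authors' deposited table, and 0 at an unadjusted p under 0.05. Excitatory neuron markers had a median of -0.06, with 1 higher and 3 lower at an unadjusted p under 0.05, and Camk2a was at -0.18 ± 0.058 and Rorb at -0.37 ± 0.129 in the authors' deposited table. Inhibitory neuron markers had a median of -0.11, with 0 at an unadjusted p under 0.05, and Sst was at 0.19 ± 0.101 and Slc32a1 at -0.10 ± 0.063 in the authors' deposited table. The blood gene Alas2 was at 0.23 ± 0.128 in the authors' deposited table. The median of the 30 genes was -0.03 in this comparison. The part of the cell types in the values of the 30 genes was not tested.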

How the data were processed

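Sequencing libraries that keep strand were prepared from total RNA of cortex (per the labels' protocols). The submitters' processing notes name DESeq2 1.34.0, R 4.1.2 and the mm10 build. They and the other sources used here do not give the aligner, counter, annotation or strand setting. The deposited mean normalized count, a signal, is the authors' average over all libraries. The log2 fold change, its SE and the Wald statistic, a score, are the authors', per the file headers. The p-value and adjusted p-value are deposited too; adjustment ran over all rows of a table. Deposited SEs reach at most 0.138 in all 3 tables, though mean normalized counts go down to 0.523 in Grn-/-;GRNtg against Grn+/-. A prior that draws fold changes of poorly measured genes towards 0 is thus possible, and none is stated in the sources used here. With such a prior, the percentages of wild type and the intervals given here would be those of fold changes drawn towards 0. Depth per mouse is unknown. No new test was fitted; p-values measure the spread between mice as the authors modelled it, and nothing beyond the mouse numbers says how the mice are related.

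The 30 genes and the lists were chosen with earlier results of these data known; 5 further genes of the lists are not reported here, whether or not they passed, and every count of a list leaves them out. All 30 were named, with the highest and lowest of each step; of other lists, those called, or, where a list had none in a comparison, the 2 genes with the smallest p-values. Cyp46a1 was named after its values were seen. Exon lengths and overlaps are from GENCODE M21 (GRCm38, which mm10 names), promoters from RefSeq (GRCm38.p6). Transcripts were compared in stretches of 50 bases on both strands. Intervals are the fold change and its SE on the normal scale at 95%. Alternatives were a threshold of 0.01 or 0.1 and adjustment over the 13482 genes in all 3 tables. Others were a minimum fold change of 0.2 in log2 and a minimum mean normalized count of 100. In a further one, statistics were centred and divided by their robust spread. The code for it was run on simulated data with few, strongly shifted genes. Those data do not show how it acts where many genes shift a little. The 2 rows that name no gene, 17.0% (no feature) and 0.606% (ambiguous) of the mean normalized counts, stayed out of counts of genes. Tools were scipy 1.17.1, pandas 2.3.3, numpy 2.4.6, matplotlib 3.10.9 and Python 3.11.15.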

Additional observations from a re-analysis of the deposited data

How the results depend on the processing

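The count of the 30 genes called in Grn-/-;GRNtg against wild type was 2, and became 1 at an adjusted p under 0.01 (Fdft1), 4 at 0.1 (with Dhcr7 and Scd1) and 0 with statistics divided by their robust spread, which was 1.56. In Grn+/- against wild type it was 1, and became 0 at 0.01, 4 at 0.1 (with Fdft1, Dhcr7 and Insig1) and 0 with the robust spread of 1.49. With the robust spread 3 genes of all 14961 and 6 of all 13482 were called in those tables, so the calls rest on the authors' own spread. Many small real shifts would also widen the robust spread, so this setting does not decide which calls are true. The counts of 2 and 1 were the same with adjustment over the genes in all 3 tables, with a minimum log2 fold change of 0.2 and with a minimum mean normalized count of 100. In Grn-/-;GRNtg against Grn+/- the count was 0 in each of these settings. Medians of the 30 genes kept their sign in each setting tried and shifted with the genes kept. In Grn-/-;GRNtg against wild type the median was 0.036, and it was 0.031 after centring on all genes, 0.051 with a minimum mean normalized count of 100, 0.073 without the fatty acid genes and 0.098 for the 18 sterol enzymes alone. In Grn+/- against wild type it was 0.042, and 0.034, 0.043, 0.073 and 0.122 in the same settings. Between Grn-/-;GRNtg and Grn+/- it lay between -0.028 and -0.020. No paired analysis was possible because the tables hold no values per mouse, and for the same reason no mouse could be left out in turn. The cause of these changes was not tested. No outlying mouse could be sought.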
